A study of Caenorhabditis elegans with 12 samples.

Results

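The genes described here are the *Caenorhabditis elegans* Notch pathway genes *glp-1*, *lin-12*, *apx-1*, *lag-1*, *lag-2*, *ref-1*, *sel-8* and *sel-12*. They were chosen by name, as 8 of the 45410 gene rows listed for every library, and 7 of the 8 had enough reads to be tested. RNA-seq was performed on mid-embryos of 2 *set-2* mutants, each beside wild type (N2) from its own experiment, to ask which transcripts change when SET-2, the main enzyme for histone H3 lysine 4 trimethylation in the worm, is impaired. Experiment 1 holds 3 libraries of *set-2(tm1630)*, a deletion allele, and 3 of N2. Experiment 2 holds 3 libraries of *set-2(zr2012)*, a single amino acid substitution in the SET domain introduced by CRISPR editing with *pha-1* co-conversion, and 3 of N2. Both mutant lines had been backcrossed. In all groups, hermaphrodites were bleached, and embryos kept at 20 degrees for 4 h were collected when most had reached the comma stage, so each library is a bulk sample of whole embryos with all their tissues. In such samples fewer cells of a type and less RNA per cell cannot be told apart.

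Notch signalling passes information between touching cells. A DSL ligand on one cell (in the embryo APX-1 or LAG-2, among others) binds a receptor on its neighbour (GLP-1 or LIN-12), the receptor is cut by ADAM proteases and then by gamma-secretase, whose catalytic subunit is a presenilin (SEL-12 or HOP-1), and the freed intracellular domain joins the DNA-binding protein LAG-1 and the Mastermind-like protein SEL-8 to switch on target genes such as *ref-1*. In *C. elegans*, maternal *glp-1* and *apx-1* mRNAs serve the first inductions of the early embryo, whereas *lin-12* and *lag-2* act in later embryonic and larval decisions. GLP-1 also maintains germline stem cells.

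Total counts per library ran from 14651380 to 53080992. The reads on *set-2* itself did not check the labels. There were 116, 12 and 97 reads in the *set-2(tm1630)* libraries, against 1, 11 and 44 in N2, and 12, 13 and 10 in the *set-2(zr2012)* libraries, against 9, 13 and 17 in N2. The groups are therefore named as the libraries are labelled. The levels of stage and cell type markers differed between libraries. The summed level of 16 maternal and early embryo transcripts (14 of them detected, with *mex-3* and *pie-1* listed at 0) was 1100 to 1398 CPM (read counts scaled to the library total) in *set-2(tm1630)* and 91.0 to 240.2 CPM in N2 of experiment 1. It was 190.1 to 230.2 CPM in *set-2(zr2012)* and 167.3 to 741.5 CPM in N2 of experiment 2, where replicate 3 stood apart at 742 CPM beside 167 and 183 CPM. The 6 germ line and oocyte genes listed, with *rec-8* at 0, summed to 186 to 248 CPM in *set-2(tm1630)* and 24.8 to 86.8 CPM in N2. The 7 body wall muscle genes, with *unc-15* and *lev-11* at 0, summed to 1327 to 1412 CPM in *set-2(tm1630)* and 2684 to 4560 CPM in N2. Pharynx (291 to 429 CPM, against 566 to 865) and epidermis genes (244 to 326, against 364 to 1456) were lower too. The neuron, sperm and both intestine lists overlapped. In experiment 2, N2 replicate 3 had 4184 CPM of muscle and 1231 CPM of pharynx genes. N2 replicates 1 and 2 had 6925 and 7214 CPM of muscle and 4142 and 4298 CPM of pharynx genes. For the Notch genes of experiment 2, fold changes are given with and without N2 replicate 3.

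Of the 7 genes tested, *glp-1* and *apx-1* were higher in *set-2(tm1630)* than in N2 and none was lower, whereas *lin-12* and *lag-2* were lower in *set-2(zr2012)* and none was higher. These calls use edgeR's quasi-likelihood test at an adjusted p under 0.05. Among all genes tested, 30.4% were called in *set-2(tm1630)* (14.4% higher and 16.0% lower) and 10.4% in *set-2(zr2012)* (5.71% higher and 4.74% lower). The 2 of 7 called in *set-2(tm1630)* is close to the share of all genes, and the 2 of 7 in *set-2(zr2012)* is above it, on a list too short to read more from. The median log2 fold change of the 7 genes was 0.14 in *set-2(tm1630)*, beside -0.21 over all genes tested, and -0.65 in *set-2(zr2012)*, beside -0.082. Libraries of mutant and N2 did not overlap for 2 of the 7 in *set-2(tm1630)*, where 50.4% of all genes showed no overlap, and for 4 of the 7 in *set-2(zr2012)*, where the share was 37.0%. In *set-2(zr2012)* the 2 calls did not survive when N2 replicate 1 or 2 or any one of the mutant libraries was left out (0 of 7 called in each of these 5 fits). Without N2 replicate 3 there were 5 calls, 1 higher and 4 lower. Over all genes the count moved likewise, from 1765 to 10468 without N2 replicate 3 and to 29 without *set-2(zr2012)* replicate 3. Calls without N2 replicate 3 are thus not particular to these genes, and the adjusted p values given below without it are to be read beside that count. In *set-2(tm1630)* leaving out 1 library gave 1 or 2 calls, and *glp-1* was among them each time.

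**Figure D1:**
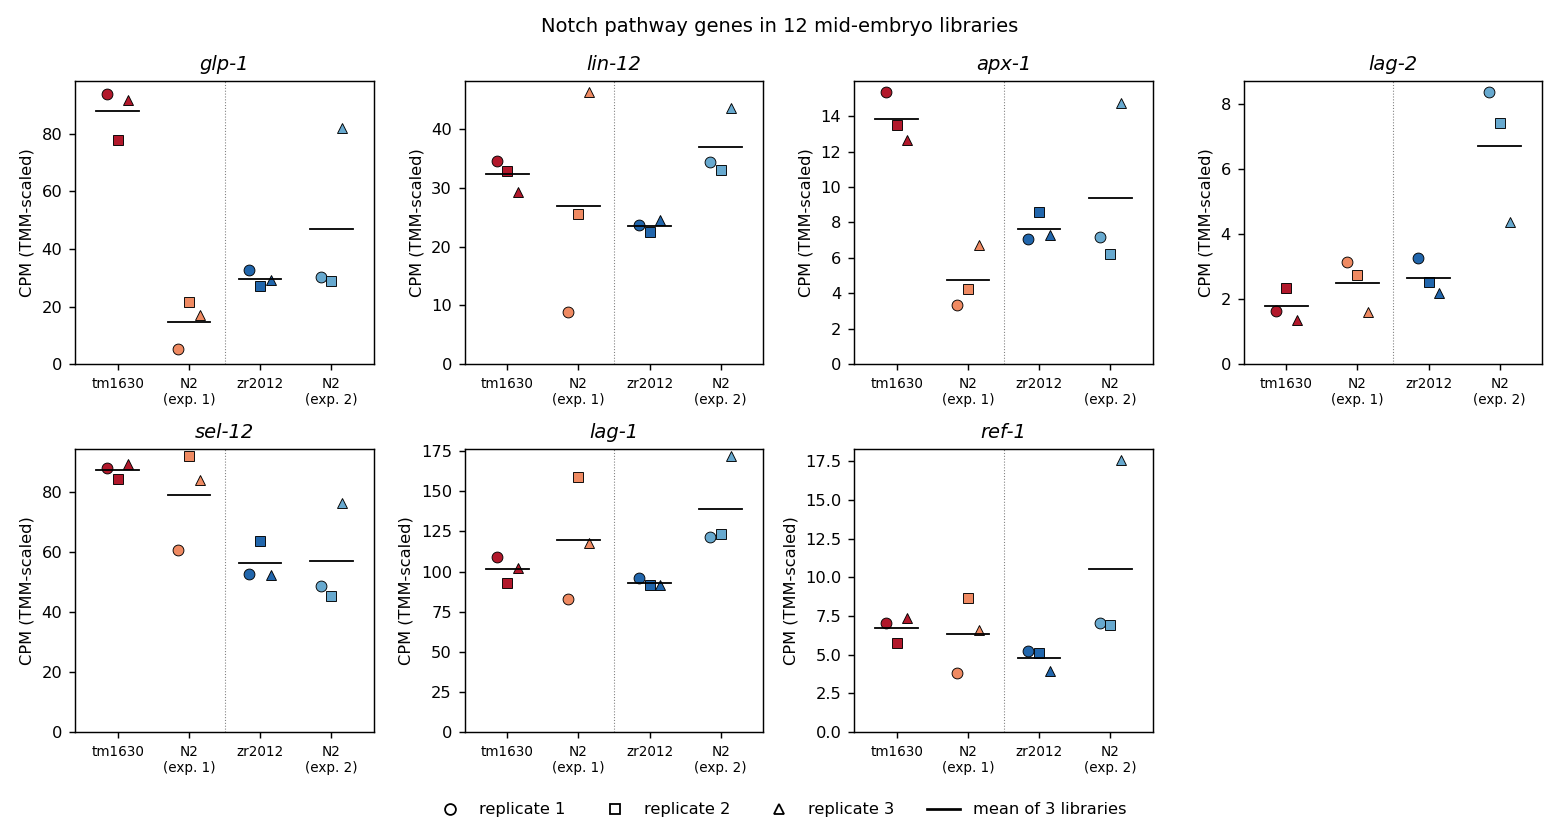
Level of 7 Notch pathway genes in each library (CPM, scaled within each experiment, axes from 0), with *set-2(tm1630)* and its N2 left of the dotted line and *set-2(zr2012)* and its N2 right of it. Points are libraries and bars are means of 3. The *set-2(tm1630)* points lie above all N2 points of their experiment for *glp-1* and *apx-1*, and N2 replicate 3 of experiment 2 is the highest of its group for every gene except *lag-2*.

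The receptor gene *glp-1* was the member that differed most between mutant and wild type. It reached 93.9, 77.8 and 91.9 CPM in the *set-2(tm1630)* libraries, against 5.32, 21.6 and 16.9 CPM in N2. The lowest mutant library was thus well above the highest N2 library, and these values rest on 1153 to 3523 reads in the mutant and 116 to 916 in N2. The level averaged 87.9 ± 8.79 CPM in *set-2(tm1630)* and 14.6 ± 8.41 CPM in N2 (SD, n = 3 each), a log2 fold change of 2.58 (standard error 0.50, edgeR adjusted p = 0.0108), or 5.99-fold. It was called under all 12 alternatives tried, with log2 fold changes of 2.18 to 2.96. The maternal transcripts moved with it in the same libraries (1100 to 1398 CPM in *set-2(tm1630)*, 91.0 to 240.2 CPM in N2), and their part in the result was not tested.

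In experiment 2, *glp-1* stood at 32.8, 27.02 and 29.2 CPM in *set-2(zr2012)*, against 30.4, 29.03 and 81.9 CPM in N2. The mutant libraries lay among N2 replicates 1 and 2, and N2 replicate 3, the library with the high maternal transcripts, was 2.75 times the mean of the other 2. The log2 fold change was -0.67 (standard error 0.41, edgeR adjusted p = 0.312) with that library and -0.0054 (adjusted p = 0.964) without it.

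The other receptor gene, *lin-12*, was not called in *set-2(tm1630)*. It was at 34.6, 32.9 and 29.3 CPM in *set-2(tm1630)*, against 8.93, 25.5 and 46.3 CPM in N2. The N2 libraries spread on both sides of the mutant ones, and the log2 fold change of 0.26 (standard error 0.52, edgeR adjusted p = 0.720) did not pass the test. Its sign depended on the N2 libraries, with 0.90 without replicate 3 and -0.15 without replicate 1, neither called (adjusted p = 0.131 and 0.715). In *set-2(zr2012)*, *lin-12* was at 23.7, 22.5 and 24.5 CPM, against 34.3, 33.03 and 43.5 CPM in N2, so the groups did not overlap. It averaged 23.6 ± 1.02 CPM in the mutant and 36.9 ± 5.70 CPM in N2 (SD, n = 3 each), and the log2 fold change was -0.65 (standard error 0.14, edgeR adjusted p = 0.0388). Without N2 replicate 3 it was -0.52 (adjusted p = 1.31e-04). The call was lost when N2 replicate 1 or 2 was left out (adjusted p = 0.102 and 0.0969) and when any mutant library was (0.158 to 0.163).

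Among the ligand genes, *apx-1*, whose maternal product signals to GLP-1 in the early embryo, moved in the same direction as *glp-1*. It was at 15.4, 13.5 and 12.6 CPM in *set-2(tm1630)*, against 3.34, 4.23 and 6.75 CPM in N2. All the mutant libraries were above all N2 libraries, with averages of 13.8 ± 1.40 CPM in *set-2(tm1630)* and 4.77 ± 1.77 CPM in N2 (SD, n = 3 each). The log2 fold change was 1.53 (standard error 0.38, edgeR adjusted p = 0.0225), or 2.89-fold. This call was less firm than that of *glp-1*, since leaving out *set-2(tm1630)* replicate 1, 2 or 3 gave adjusted p = 0.103, 0.0743 and 0.0830, and leaving out N2 replicate 2 gave 0.0554, although the log2 fold change stayed at 1.33 to 1.86 over all alternatives. The maternal list separated the same libraries, and its part was not tested here either.

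In *set-2(zr2012)*, *apx-1* was at 7.04, 8.58 and 7.30 CPM, against 7.16, 6.22 and 14.8 CPM in N2. The groups overlapped, with N2 replicate 3 again high. The log2 fold change was -0.30 (standard error 0.35, edgeR adjusted p = 0.582), and 0.19 (adjusted p = 0.237) without that library, and neither value passed.

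The second ligand gene, *lag-2*, is known in the larva for the distal tip cell, which signals to the germ line, and was called lower in *set-2(zr2012)*. It was at 3.26, 2.54 and 2.20 CPM in *set-2(zr2012)*, against 8.37, 7.43 and 4.37 CPM in N2. The mutant libraries were all below the N2 ones, and N2 replicate 3 was the lowest of its group, at 0.553 times the mean of the other 2. The level averaged 2.67 ± 0.543 CPM in *set-2(zr2012)* and 6.72 ± 2.09 CPM in N2 (SD, n = 3 each), on 60 to 78 reads in the mutant and 171 to 249 in N2. The log2 fold change was -1.33 (standard error 0.30, edgeR adjusted p = 0.0428), a 2.52-fold lower level in the mutant, and -1.58 (adjusted p = 7.92e-06) without N2 replicate 3. Without N2 replicate 1 or 2, or without any one mutant library, it was no longer called (adjusted p = 0.133 to 0.198). In *set-2(tm1630)*, *lag-2* was at 1.65, 2.36 and 1.35 CPM, against 3.16, 2.75 and 1.61 CPM in N2. These groups overlapped, and the log2 fold change of -0.49 (standard error 0.45, edgeR adjusted p = 0.422) did not pass.

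**Figure D2:**
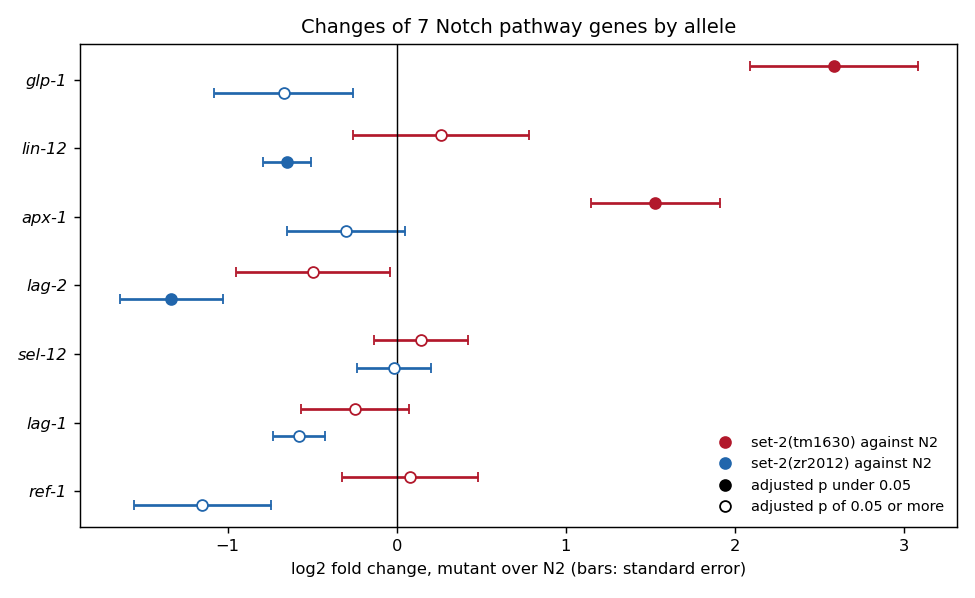
Log2 fold change of each tested gene, mutant over N2 of the same experiment, with its standard error, for *set-2(tm1630)* (red) and *set-2(zr2012)* (blue). Filled points have an edgeR adjusted p under 0.05. Only *glp-1* and *apx-1* are filled for *set-2(tm1630)*, at 2.58 and 1.53, and only *lin-12* and *lag-2* for *set-2(zr2012)*, at -0.65 and -1.33.

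Downstream of the receptors, the presenilin gene *sel-12* was not called in either mutant. It was at 88.0, 84.2 and 89.5 CPM in *set-2(tm1630)*, against 60.7, 92.0 and 84.0 CPM in N2 (log2 fold change 0.14, standard error 0.28, edgeR adjusted p = 0.709). It was at 52.7, 63.7 and 52.4 CPM in *set-2(zr2012)*, against 48.7, 45.4 and 76.4 CPM in N2 (log2 fold change -0.016, standard error 0.22, edgeR adjusted p = 0.967). The experiment 2 value was close to 0 and its sign turned in 5 of 12 alternatives. Without N2 replicate 3 the log2 fold change was 0.26 (adjusted p = 0.0285).

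The gene for the DNA-binding protein of the pathway, *lag-1*, was at 109, 92.6 and 102 CPM in *set-2(tm1630)*, against 82.9, 159 and 118 CPM in N2. The mutant libraries lay within the range of N2 (log2 fold change -0.24, standard error 0.32, edgeR adjusted p = 0.575). In *set-2(zr2012)* it was at 96.1, 91.6 and 91.5 CPM, against 122, 123 and 172 CPM in N2. All mutant libraries were below all N2 ones, yet the log2 fold change of -0.58 (standard error 0.16, edgeR adjusted p = 0.0636) missed the threshold. Without N2 replicate 3 it was -0.39 (adjusted p = 2.00e-04), and DESeq2's Wald test on all 6 libraries gave an adjusted p of 0.0292. The Mastermind-like gene *sel-8* was listed at 0 in all 12 libraries, where 3 reads would be 0.0555 to 0.202 CPM. This value is not read as absence of the transcript, since 1911 of 19129 matched protein-coding genes (9.99%) were at 0 in every library, among them the neuronal gene *unc-119* and the muscle gene *unc-15*. In the RefSeq annotation of a later assembly (WBcel235) the noncoding gene *C32A3.7* (0 to 2 reads here) lies within *sel-8*. How reads on overlapping genes were counted is not given in the sources used here. Whether overlap had a part in the 0 of *sel-8* was not tested.

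The target gene *ref-1*, which encodes a basic helix-loop-helix repressor that Notch switches on in the embryo, was at 7.04, 5.73 and 7.37 CPM in *set-2(tm1630)*, against 3.85, 8.64 and 6.58 CPM in N2. The groups overlapped (log2 fold change 0.078, standard error 0.40, edgeR adjusted p = 0.896) in the same libraries in which *glp-1* and *apx-1* were high. In *set-2(zr2012)*, *ref-1* was at 5.24, 5.14 and 3.92 CPM, against 7.06, 6.95 and 17.6 CPM in N2. The mutant libraries were below every N2 library, with N2 replicate 3 at 2.51 times the mean of the other 2. The log2 fold change was -1.15 (standard error 0.41, edgeR adjusted p = 0.116), -0.56 (adjusted p = 0.00622) without that library, and called by DESeq2's Wald test on all libraries (adjusted p = 0.0444). The related genes *hlh-25* to *hlh-29* had too few reads for a test, 0 to 27 each, and whether they share reads was not checked. Summed, they had 22, 15 and 19 reads in *set-2(tm1630)*, against 2, 0 and 3 in N2, and 4, 10 and 3 reads in *set-2(zr2012)*, against 2, 1 and 81 in N2. The 81 reads were those of N2 replicate 3.

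For every Notch gene tested, the spread between libraries was wider in N2 than in the mutant of the same experiment. It is thus not particular to the receptor genes, and it is given without a test. In experiment 1 the coefficient of variation of *glp-1* over 3 libraries was 9.999% in *set-2(tm1630)* and 57.4% in N2, and that of *lin-12* was 8.31% in *set-2(tm1630)* and 69.6% in N2. In experiment 2 that of *glp-1* was 9.91% in *set-2(zr2012)* and 63.9% in N2, where replicate 3 made the spread, since N2 replicates 1 and 2 were at 30.4 and 29.03 CPM. That of *lin-12* in experiment 2 was 4.32% in *set-2(zr2012)* and 15.4% in N2. Outside the receptors, that of *sel-12* in experiment 1 was 3.12% in *set-2(tm1630)* and 20.6% in N2. For *lag-2* it was 28.9% in *set-2(tm1630)* and 32.1% in N2.

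Whether the alleles differed in their effect was tested as the change in *set-2(tm1630)* minus the change in *set-2(zr2012)* in a fit over all 12 libraries, in which allele and experiment cannot be told apart. Of all genes tested 23.4% were called. Among the 7 Notch genes, *glp-1* (3.25 on the log2 scale, standard error 0.67, edgeR adjusted p = 0.00720) and *apx-1* (1.83, standard error 0.51, edgeR adjusted p = 0.0238) were called. The *glp-1* difference held in 17 of 17 alternatives (2.61 to 3.64, the lowest without N2 replicate 3 of experiment 2), and that of *apx-1* was lost in 4 of 17, among them without *set-2(tm1630)* replicate 1 (adjusted p = 0.0511) and without *set-2(zr2012)* replicate 1 or 3 (0.0627 for each). The other 5 genes had differences of 0.17 to 1.23 that did not pass (adjusted p = 0.132 to 0.745). For *lin-12* and *lag-2*, called in *set-2(zr2012)* and not in *set-2(tm1630)*, the alleles were thus not shown to differ (0.92 and 0.86, edgeR adjusted p = 0.277 and 0.259), except that the *lin-12* difference was called without N2 replicate 3 of experiment 1 (1.57, adjusted p = 0.0198).

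Ratios of reads within a library do not depend on the scaling between libraries, and 3 of them were followed as descriptions, because an exact permutation test of 3 against 3 libraries cannot go below 0.1. The ratios compare libraries, not the levels of the genes, since gene lengths were not used. The ratio of *glp-1* to *lin-12* reads was 2.71, 2.36 and 3.13 in *set-2(tm1630)*, against 0.595, 0.850 and 0.366 in N2, with no overlap. It was 1.39, 1.20 and 1.19 in *set-2(zr2012)*, against 0.886, 0.879 and 1.88 in N2, where only replicate 3 exceeded the mutant libraries. The receptor reads in *set-2(tm1630)* thus held more *glp-1* relative to *lin-12* in every library than in any N2 library. The ratio of *apx-1* to *lag-2* reads was 9.31, 5.71 and 9.34 in *set-2(tm1630)*, against 1.06, 1.54 and 4.20 in N2. It was 2.16, 3.39 and 3.32 in *set-2(zr2012)*, against 0.855, 0.836 and 3.38 in N2, where replicate 3 fell among the mutant libraries. The ratio of the presenilin genes *hop-1* and *sel-12* was 0.176, 0.151 and 0.146 in *set-2(tm1630)*, against 0.0340, 0.0321 and 0.0225 in N2, and 0.0749, 0.0419 and 0.0693 in *set-2(zr2012)*, against 0.0594, 0.0555 and 0.100 in N2. In experiment 1 all 3 ratios were higher in every mutant library than in every N2 library. Each of the 3 sets a gene called higher in *set-2(tm1630)* over one that was not called. Their separation therefore restates the results of the single genes and adds no further support.

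**Figure D3:**
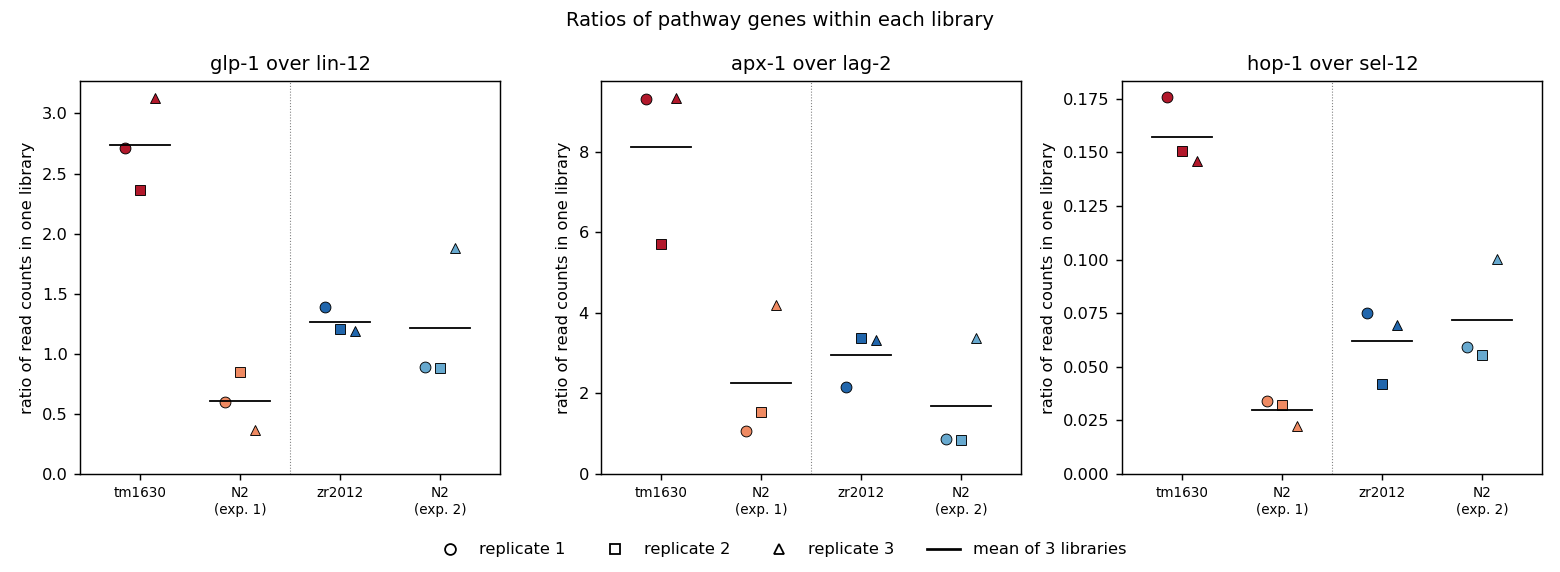
Ratio of read counts of 2 pathway genes within each library (axes from 0), for *glp-1* over *lin-12*, *apx-1* over *lag-2* and *hop-1* over *sel-12*. Points are libraries and bars are means of 3. All *set-2(tm1630)* points are above all N2 points of experiment 1, and the *set-2(zr2012)* points overlap with those of their N2.

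The levels of *glp-1* and *apx-1* were set beside the maternal transcripts in each library. N2 replicate 3 of experiment 2, at 742 CPM of maternal transcripts, had 81.9 CPM of *glp-1* and 14.8 CPM of *apx-1*, inside the ranges of 77.8 to 93.9 CPM and 12.6 to 15.4 CPM of the *set-2(tm1630)* libraries, whose maternal transcripts were at 1100 to 1398 CPM. The other 8 libraries had 91.0 to 240.2 CPM of maternal transcripts, 5.32 to 32.8 CPM of *glp-1* and 3.34 to 8.58 CPM of *apx-1*. *lag-2* did not divide the libraries in this way. It was at 1.35 to 2.36 CPM in *set-2(tm1630)* and 4.37 CPM in N2 replicate 3 of experiment 2. In the other 8 libraries it was at 1.61 to 8.37 CPM. Levels were scaled separately in the 2 experiments, so these cross-experiment values are only a description.

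**Figure D4:**
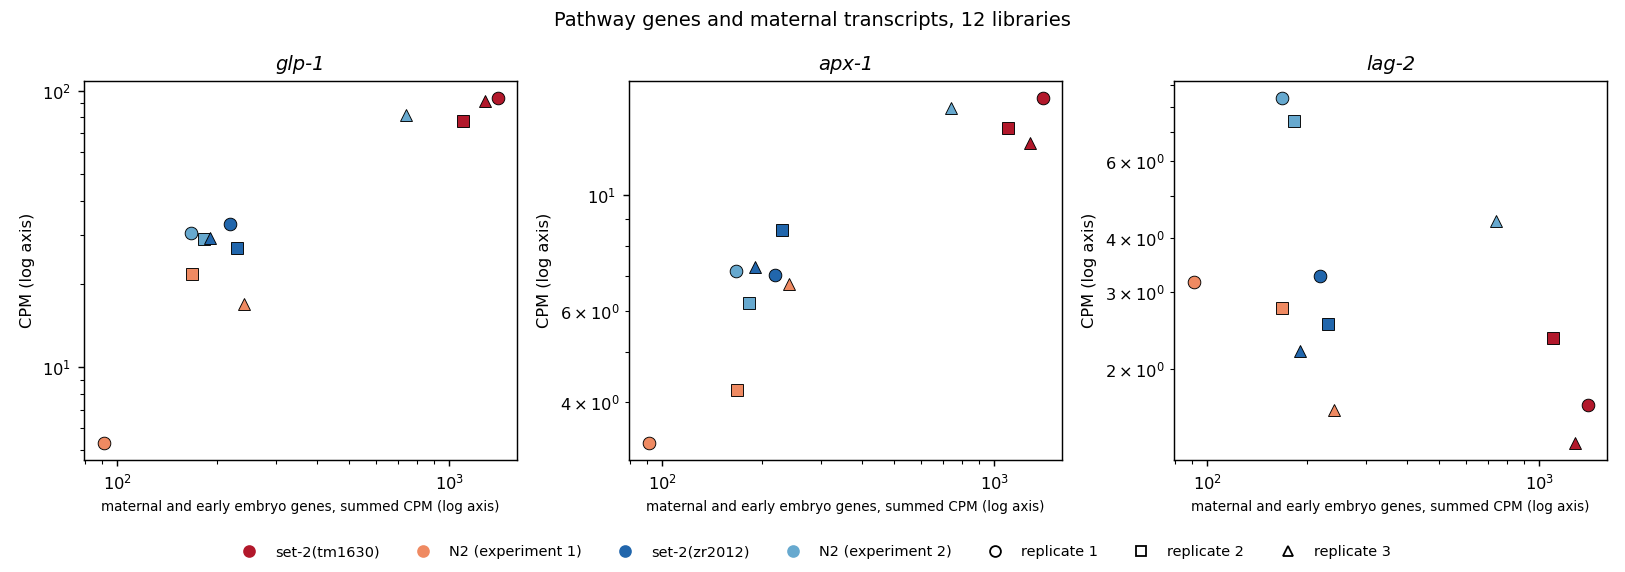
Level of *glp-1*, *apx-1* and *lag-2* (CPM, log axis) against the summed level of 16 maternal and early embryo genes (CPM, log axis) in the 12 libraries, coloured by group with the replicate as symbol. The *set-2(tm1630)* libraries (1100 to 1398 CPM of maternal transcripts) and N2 replicate 3 of experiment 2 (742 CPM) lie apart from the other 8 libraries, with high *glp-1* and *apx-1*.

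A further 49 genes of the pathway were listed by role. Of the 40 tested in *set-2(tm1630)*, 6 were higher, 5 were lower and 29 did not pass, with a median log2 fold change of 0.17 (-3.28 to 4.55) beside -0.21 over all genes. Of the 41 tested in *set-2(zr2012)*, none was higher, 4 were lower and 37 did not pass, with a median of -0.086 (-2.03 to 1.39) beside -0.082. The shares of all genes called were 30.4% in *set-2(tm1630)* and 10.4% in *set-2(zr2012)*. As with the main genes, the counts hung on single libraries. Without N2 replicate 3 there were 19 higher and 10 lower calls in *set-2(zr2012)*, and none in either direction without any one of the other 5 libraries. In *set-2(tm1630)* there were 12 higher and 7 lower without N2 replicate 3, and 3 higher and 1 lower without *set-2(tm1630)* replicate 1 or 3. The calls over all genes moved the same way, so these shifts were not particular to the pathway genes. Without N2 replicate 3 they were 10468 in *set-2(zr2012)*, beside 1765 in the main fit, and 7857 in *set-2(tm1630)*, beside 4961. Without *set-2(tm1630)* replicate 1 they were 747. In *set-2(tm1630)* the call of a gene was lost in 2 alternatives for *dsl-7*, 3 for *dsl-2* and *sel-7*, 4 for *dsl-6*, 5 for *pen-2* and *lip-1* and 7 for *sygl-1*, and in none for *arg-1*, *osm-11*, *hop-1* and *spr-2*. In *set-2(zr2012)* each of the 4 calls (*dsl-7*, *sel-7*, *spr-1* and *lst-3*) was lost in 7 alternatives, 5 of which leave out a library other than N2 replicate 3. Without N2 replicate 3 they were called at log2 fold changes of -0.91, -0.83, -0.64 and -2.19.

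**Figure D5:**
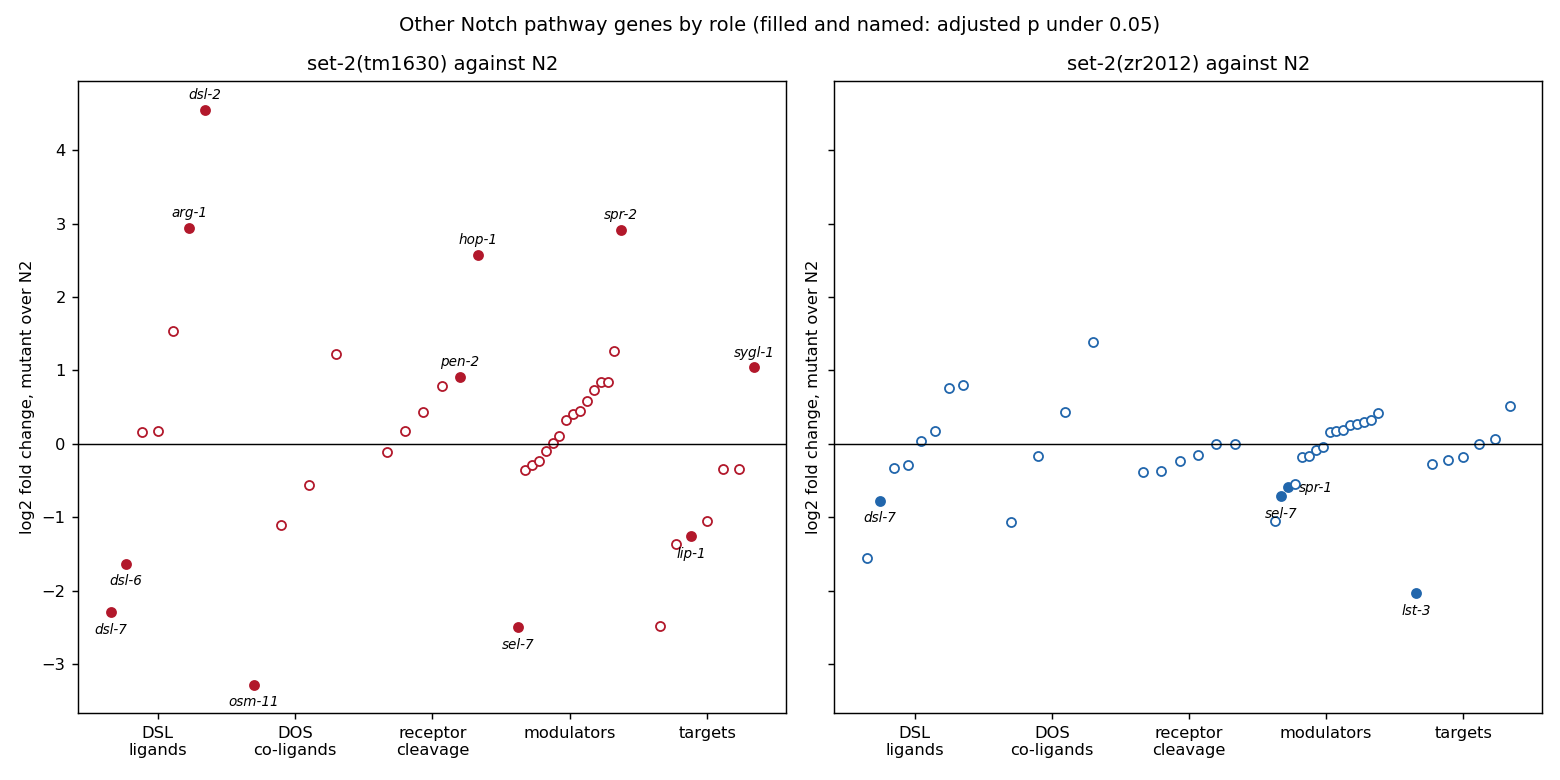
Log2 fold change of the other Notch pathway genes tested, mutant over N2, by role, with *set-2(tm1630)* at left and *set-2(zr2012)* at right. Each point is a gene, and filled, named points have an edgeR adjusted p under 0.05. The *set-2(tm1630)* values span -3.28 to 4.55 and those of *set-2(zr2012)* -2.03 to 1.39.

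Among the other DSL ligand genes, *arg-1* and *dsl-2* were higher and *dsl-6* and *dsl-7* lower in *set-2(tm1630)*. *arg-1* averaged 1.33 ± 0.365 CPM in *set-2(tm1630)* and 0.172 ± 0.0645 CPM in N2 (SD, n = 3 each), on 26 to 42 reads in the mutant and 4 to 10 in N2, and its log2 fold change was 2.94 (standard error 0.54, edgeR adjusted p = 0.00961). *dsl-2* averaged 26.1 ± 7.35 CPM in *set-2(tm1630)* and 1.15 ± 1.22 CPM in N2, a log2 fold change of 4.55 (standard error 0.96, edgeR adjusted p = 0.0140) that was 5.70 without N2 replicate 1 and 3.97 without N2 replicate 2. In experiment 2 it had 98 to 145 reads in *set-2(zr2012)*, against 37 to 1449 in N2, the highest being N2 replicate 3. Its log2 fold change in *set-2(zr2012)* was -1.56 (edgeR adjusted p = 0.392), and 1.23 (adjusted p = 0.00247) without that library. *dsl-7* was lower in both mutants. It averaged 6.81 ± 2.68 CPM in *set-2(tm1630)* and 33.3 ± 12.2 CPM in N2 (log2 fold change -2.29, standard error 0.44, edgeR adjusted p = 0.0107), and 27.3 ± 1.80 CPM in *set-2(zr2012)* and 46.7 ± 8.02 CPM in N2 (log2 fold change -0.77, standard error 0.16, edgeR adjusted p = 0.0322). *dsl-6* was at 73.2 ± 16.04 CPM in *set-2(tm1630)* and 227 ± 102 CPM in N2 (log2 fold change -1.63, edgeR adjusted p = 0.0240).

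Of the 4 secreted co-ligand genes tested, *osm-11* was lower in *set-2(tm1630)* and the other 3 did not pass. It was at 6.05, 5.40 and 6.59 CPM in *set-2(tm1630)*, against 104, 37.8 and 33.4 CPM in N2. Every mutant library was below every N2 library, and the log2 fold change of -3.28 (standard error 0.50, edgeR adjusted p = 0.00602) was called in all alternatives. Without N2 replicate 1, the highest library, it was -2.57. In *set-2(zr2012)* none of the 4 was called. Of the 6 genes for receptor cleavage, *hop-1* and *pen-2* were higher in *set-2(tm1630)* and none passed in *set-2(zr2012)*. *hop-1*, the second presenilin gene, was at 15.5, 12.7 and 13.04 CPM in *set-2(tm1630)*, against 2.06, 2.96 and 1.89 CPM in N2. The groups were far apart (log2 fold change 2.57, standard error 0.37, edgeR adjusted p = 0.00513, called in all alternatives), while the other presenilin gene, *sel-12*, was not called. *pen-2*, a small gamma-secretase subunit, averaged 51.8 ± 2.13 CPM in *set-2(tm1630)* and 27.5 ± 3.23 CPM in N2 (SD, n = 3 each; log2 fold change 0.91, edgeR adjusted p = 0.0330).

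Among 16 modulators, 1 was higher and 1 lower in *set-2(tm1630)*, and 2 were lower in *set-2(zr2012)*. *spr-2*, which encodes a SET/NAP family protein found as a suppressor of presenilin mutants, was at 500.5, 380.5 and 443 CPM in *set-2(tm1630)*, against 36.2, 49.9 and 90.2 CPM in N2. No library overlapped, and the log2 fold change of 2.91 (standard error 0.43, edgeR adjusted p = 0.00538) was called in all alternatives. *sel-7*, a nuclear factor that promotes LIN-12 activity, averaged 8.04 ± 0.934 CPM in *set-2(tm1630)* and 45.4 ± 26.5 CPM in N2 (log2 fold change -2.50, edgeR adjusted p = 0.0143), and 51.1 ± 6.29 CPM in *set-2(zr2012)* and 83.9 ± 11.7 CPM in N2 (log2 fold change -0.71, edgeR adjusted p = 0.0357). *spr-1*, the CoREST homologue and another presenilin suppressor, averaged 58.7 ± 0.660 CPM in *set-2(zr2012)* and 87.9 ± 6.88 CPM in N2 (log2 fold change -0.58, standard error 0.10, edgeR adjusted p = 0.0221).

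Of 14 target genes listed, 7 were tested. *sygl-1*, a GLP-1 target in germline stem cells, was higher in *set-2(tm1630)*, at 24.4 ± 1.36 CPM, against 11.9 ± 3.29 CPM in N2 (SD, n = 3 each; log2 fold change 1.04, standard error 0.33, edgeR adjusted p = 0.0447), a call lost in 7 alternatives. *lip-1*, a MAP kinase phosphatase gene that LIN-12 activates in the vulva, was lower, at 15.04 ± 4.36 CPM in *set-2(tm1630)*, against 36.0 ± 3.91 CPM in N2 (log2 fold change -1.26, standard error 0.32, edgeR adjusted p = 0.0245), a call lost in 5. In *set-2(zr2012)*, *lst-3* was lower on few reads, 7 to 14 in the mutant and 40 to 46 in N2 (log2 fold change -2.03, standard error 0.39, edgeR adjusted p = 0.0286). In *set-2(tm1630)* its log2 fold change of -2.49 (standard error 0.82, edgeR adjusted p = 0.0507) just missed the threshold. The alleles were not shown to differ for *lst-3* (difference -0.44, edgeR adjusted p = 0.760). *osm-7*, *lst-1* and *lst-4* were listed at 0 in all libraries. The germ line and oocyte genes, which share cells with *glp-1* and *sygl-1* in the adult, were also higher in *set-2(tm1630)* (186 to 248 CPM, against 24.8 to 86.8 CPM in N2), and their part in these results was not tested.

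The difference between the alleles was called for 9 of the 41 of these genes tested, 5 with a positive and 4 with a negative difference, beside the 23.4% of all genes. The largest were *dsl-2* (6.12, edgeR adjusted p = 0.0179), *osm-11* (-3.09, 0.00390), *spr-2* (3.00, 0.00297) and *hop-1* (2.94, 0.00581). For *dsl-7* (-1.51, 0.0361) and *sel-7* (-1.76, 0.0415), lower in both mutants, the decrease was larger in *set-2(tm1630)*. Without N2 replicate 3 of experiment 2, *dsl-2* had a difference of 3.34 (adjusted p = 0.0485) and *dsl-7* and *sel-7* were not called (adjusted p = 0.0700 and 0.0822), while *osm-11*, *spr-2* and *hop-1* were. Over all alternatives the difference was lost in 14 of 17 for *lip-1*, 12 of 17 for *sel-7*, 11 of 17 for *pen-2*, 9 of 17 for *dsl-7*, 9 of 16 for *arg-1* and 4 of 16 for *dsl-2*, and in none for *osm-11*, *spr-2* and *hop-1*.

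The genes whose pattern was most like that of each receptor were found by the root-mean-square difference in log2 level (CPM + 0.5, centred within each experiment) over the 12 libraries, among 11707 other genes with at least 100 reads on average. For *glp-1* they were *toca-2* (0.212), *zim-2* (0.220) and *F07H5.10* (0.238). *toca-2* was at 23.1, 21.3 and 22.7 CPM in *set-2(tm1630)*, against 1.28, 5.74 and 6.45 CPM in N2, and at 17.8 CPM in N2 replicate 3 of experiment 2. For *lin-12* they were *ets-6* (0.132), *ZC376.6* (0.134) and *mlh-1* (0.145). None of the 6 is among the pathway genes listed.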

How the data were processed

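RNA was extracted from 12 mid-embryo samples, 3 independent experiments per genotype, and libraries were made with a TruSeq kit. Reads were mapped to WS220 allowing 2 mismatches, and the deposited values are raw read counts per gene, not normalised by the authors. The submitters' processing notes name Trimmomatic 0.36.0, HTSeq 0.9.1 and DESeq2 2.1.8.3. The aligner, the strand setting and the handling of overlapping genes are not given in the sources used here, so antisense and overlapping genes may share reads.

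From the counts, each mutant was compared with N2 of its own experiment by edgeR 4.0.16 (TMM, quasi-likelihood F test, two-sided, R 4.3.3), over genes that reached 10 counts in 3 or more libraries of the fit, with Benjamini-Hochberg adjustment over all genes tested and a threshold of 0.05. CPM values use the TMM-scaled library size of each experiment. The standard error is the log2 fold change divided by the square root of F. The scripts were tested on simulated counts with the same dispersion for every gene and no outlying library. That check does not measure error rates in these data. Alternatives were DESeq2 1.42.0 (size factors in edgeR, and its Wald test), no filter, a minimum of 10 counts for each library, a replicate block, all 12 libraries in 1 fit, and each library left out. One library labelled *set-2(tm1630)* replicate 3 in its title carries the number 1 in another label, and the title was used.

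The genes and lists were chosen with earlier results of these data known. All 8 genes are named, other pathway genes where they passed the threshold in either mutant, and for each receptor the 3 nearest genes. *dsl-2* in *set-2(zr2012)*, and *hlh-25* to *hlh-29*, *osm-7*, *lst-1* and *lst-4*, were described after their values were seen. *ubr-5* was matched through its sequence name in the RefSeq table (WBcel235). No sequences were analysed here, and the only position used was that of *C32A3.7* in the RefSeq annotation.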

Additional observations from a re-analysis of the deposited data

Results flagged for a closer look

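The change of *glp-1* differed between the alleles, with a log2 fold change in *set-2(tm1630)* higher by 3.25 than that in *set-2(zr2012)* (edgeR adjusted p = 0.00720). That of *apx-1* differed by 1.83 (edgeR adjusted p = 0.0238). In both cases all 3 *set-2(tm1630)* libraries were above all 3 N2 libraries of their experiment, and the *set-2(zr2012)* libraries overlapped with theirs. Allele and experiment cannot be told apart in these differences.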

How the results depend on the processing

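For the Notch genes, 248 of 287 alternative values kept their direction and their side of the threshold, 23 lost the call, 5 gained one and 11 turned direction. For the other named genes the counts were 383, 116, 9 and 15 of 523. A value that turned direction was counted only as such, even where it was called. The number of genes called in *set-2(tm1630)* against N2, 4961 in all, was 8124 with all 12 libraries in 1 fit, and 747 (without *set-2(tm1630)* replicate 1) to 7857 (without N2 replicate 3) when 1 library was left out. In *set-2(zr2012)* against N2 it was 1765, 3252 by DESeq2's Wald test, 248 with all 12 libraries in 1 fit, and 29 (without *set-2(zr2012)* replicate 3) to 10468 (without N2 replicate 3). For the difference between the alleles it was 4198, and 2357 (without *set-2(zr2012)* replicate 3) to 7293 (without N2 replicate 3 of experiment 1). The cause of these shifts was not tested. The fit over all 12 libraries could not be varied for the difference, which uses it already.

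The labels do not say whether same-numbered mutant and N2 libraries were paired, and the main fits did not pair them. The paper states that mutant and wild-type samples were handled in parallel. Libraries of different number were not compared, so the correlations that follow cannot exclude pairing. Correlations of same-numbered deviations were -0.353, -0.0862 and -0.0832 in experiment 1 and 0.111, -0.326 and -0.302 in experiment 2. With the replicate block, 3470 genes were called in *set-2(tm1630)* (2024 higher and 1446 lower, against 2352 and 2609), 40 in *set-2(zr2012)* and 1858 for the difference. The adjusted p with the block was 0.0503 for *apx-1* in *set-2(tm1630)*, 0.138 for *lin-12* and 0.105 for *lag-2* in *set-2(zr2012)*, and 0.0767 for the *apx-1* difference, while *glp-1* kept both of its calls. With all 12 libraries in 1 fit, *lin-12* and *lag-2* in *set-2(zr2012)* had adjusted p = 0.482 and 0.110.

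Some values that were not called in the main fits turned direction. In *set-2(tm1630)*, *ref-1* was -0.024 with no filter. In *set-2(zr2012)*, *sel-12* was 0.017 under the stricter filter (10 counts for each library) and 0.019 under the replicate block, and *pen-2* was 0.029 and 0.023 in these, 0.013 with DESeq2 size factors and 0.012 by the Wald test. With 1 library left out, the log2 fold change in *set-2(tm1630)* ranged from -0.15 to 0.90 for *lin-12*, -0.020 to 0.26 for *sel-12*, -0.19 to 0.35 for *ref-1* and -0.0044 to 0.53 for *spr-1*. In *set-2(zr2012)* it ranged from -0.53 to 0.19 for *apx-1*, -0.16 to 0.26 for *sel-12*, -2.08 to 1.23 for *dsl-2*, -0.57 to 0.31 for *dsl-6*, -0.64 to 0.31 for *hop-1*, -0.13 to 0.22 for *pen-2*, -0.28 to 0.25 for *spr-2* and -0.52 to 0.33 for *sygl-1*. At the upper end of these *set-2(zr2012)* ranges, *sel-12*, *dsl-2*, *dsl-6* and *spr-2* were called higher (edgeR adjusted p = 0.0285, 0.00247, 0.0363 and 0.0437). The difference between the alleles ranged from -0.086 to 0.30 for *sel-12* and -1.08 to 0.093 for *lst-3*.

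With 3 libraries a group and N2 replicate 3 of experiment 2 apart from its group, calls for *lin-12* and *lag-2* are weak. Counts of *arg-1*, *lst-3* and *hlh-25* to *hlh-29* are limited by depth. In leave-one-out fits the arm of 2 was assumed to vary like the other.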
